A study of Mus musculus with 2 samples.

Results

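The genes described here encode the enzymes of the tricarboxylic acid (TCA) cycle and those that lead pyruvate into it. They are 34 genes, taken by gene symbol from a fixed list, of 26896 gene symbols on the array. All 34 had at least 1 probe well above background on both arrays, as did 16354 genes in all. Transcript levels were measured on 2 single-colour Agilent arrays, 1 of mouse glioblastoma stem cells transduced with a lentiviral short hairpin RNA against Stat5b (knockdown) and 1 of the same line carrying a non-target hairpin (control). Both cultures came from 1 line, grown as neurospheres in serum-free medium with EGF and bFGF from a de novo tumour that a Sleeping Beauty transposon had induced, so a lentiviral hairpin and these growth factors were common to both groups. The labels name 1 non-target and 1 Stat5b hairpin treatment and do not say how many hairpin sequences were used. The study's question was what suppression of Stat5b does to gene expression. Stat5b is a transcription factor that cytokine signalling switches on through Janus kinases. With 1 array per group there was no replicate check and no test. The ± beside each difference is the scanner software's own error, combined over the probes of a gene as if they were independent. It covers neither disagreement between those probes nor differences between cultures.

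The TCA cycle oxidises acetyl-CoA in the mitochondrial matrix and passes electrons to the respiratory chain. Pyruvate from glycolysis enters either through the pyruvate dehydrogenase complex, which makes acetyl-CoA, or through pyruvate carboxylase, which makes oxaloacetate. Kinases switch pyruvate dehydrogenase off by phosphorylation and phosphatases switch it on again. In gliomas the pathway is known for mutations of the isocitrate dehydrogenases, and in other tumours for loss of succinate dehydrogenase and of fumarase.

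Stat5b had a processed signal of 498 on the knockdown array, against 1991 on the control array, at its brighter probe (log2 difference -2.0 ± 0.20). A second Stat5b probe gave 7.49 on the knockdown array and 14.7 on the control array, and its knockdown signal did not clear background. Across all measured genes, the log2 difference was above 0 for 51.2%. In the knockdown, 3.67% of them were higher by 2-fold or more and 2.41% were lower by 2-fold or more. The label of a stem cell line was set against 12 marker genes. Nestin (Nes), a filament protein of neural progenitors, had 15868 on the knockdown array and 18174 on the control array, while Sox2 and Fabp7, also common in such lines, did not clear background on either. Olig2, another of the 12, cleared background on the knockdown array alone, with 53.2 there and 6.28 on the control array. Of the 12, 9 were measured on both arrays, with a median of 0.01. The 12 markers of microglia and immune cells had a summed signal of 14407 on the knockdown array and 13453 on the control array. Of these 12, 9 were measured on both arrays, 5 of them above 0, with a median of 0.06. Those above 0 included the leukocyte gene Ptprc (4831 on the knockdown array and 3288 on the control array at its brightest probe), Itgam (4632 and 4250), Csf1r (807 and 556) and Tmem119 (114 and 32.7, a log2 difference of 1.80). Cd68 was at -0.48 (2280 on the knockdown array and 3282 on the control array at its brightest probe). C1qb was at -0.18, Laptm5 at -0.16 and Cd3e at -0.10. Aif1, Cx3cr1 and C1qa did not clear background on either array. The 8 astrocyte markers summed to 6346 on the knockdown array and 2893 on the control array, with 5 measured on both and a median log2 difference of 0.94. Most of that sum came from Aldoc (3927 on the knockdown array and 1830 on the control array at its brightest probe, mean difference 1.19), and no other astrocyte marker had a signal above 122 on the knockdown array. Gja1 was at 0.98, Aqp4 at 0.94, Slc1a2 at 0.04 and Aldh1l1 at -0.08. S100b cleared background on the knockdown array alone, Gfap on the control array alone and Slc1a3 on neither. The 8 markers each of the oligodendrocyte lineage, of neurons and of endothelial and mural cells summed to 3866, 67046 and 44395 on the knockdown array, and to 3199, 68171 and 49489 on the control array. Their medians were 0.14, 0.17 and 0.26. The neuron and the endothelial and mural sums, lower in the knockdown, thus ran against their medians. The brightest markers of those lists, Nefl and Acta2, had mean differences of -0.31 and -0.12 over their probes. Their highest probe signals were 53766 and 24925 on the knockdown array and 52365 and 24654 on the control array. Of the 5 endothelial and mural markers measured on both arrays, 3 lay above 0. The mural cell receptor Pdgfrb was dim, with 76.1 on the knockdown array and 16.6 on the control array (2.19). The endothelial gene Cdh5, also dim, had 50.4 on the knockdown array and 84.7 on the control array (-0.75). The part of cell type in the differences that follow was not tested, and fewer cells of a type and less RNA per cell cannot be told apart in such samples.

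Taken as a list, the 34 genes were centred near 0. Their median log2 difference, knockdown minus control, was -0.06, against 0.01 over all measured genes. Of the 34, 16 lay above 0 (47.1%, against 51.2% of all measured genes). None was 2-fold higher or lower. Lower by 1.5-fold or more were 4 genes, Fh1, Pdhb, Me1 and Pdp1 (11.8% of the 34, against 8.42% of all measured genes), and 0 were at least 1.5-fold higher, against 11.0% of all measured genes. These shares stood near those of all measured genes on the low side and below them on the high side. The SD of the differences was 0.35 among the 34 genes, and 0.52 over all measured genes; among genes with brighter probes it was 0.35 for 31 members and 0.461 for 10362 genes.

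A yardstick for single values is the SD of the log2 difference over different probes of 1 gene, which was 0.310 across the array. Beyond it lay 6 members on the high side (17.6%, against 23.0% of all measured genes), namely Sdhc, Idh3b, Got1, Suclg2, Mdh1 and Sdhd. On the low side lay 8 members (23.5%, against 20.3%), namely Fh1, Pdhb, Me1, Pdp1, Pdk4, Sdha, Sucla2 and Cs. The other 20 lay within this SD. It is pooled over the array for single probes, while a member's value is a mean over up to 5 probes.

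**Figure D1:**
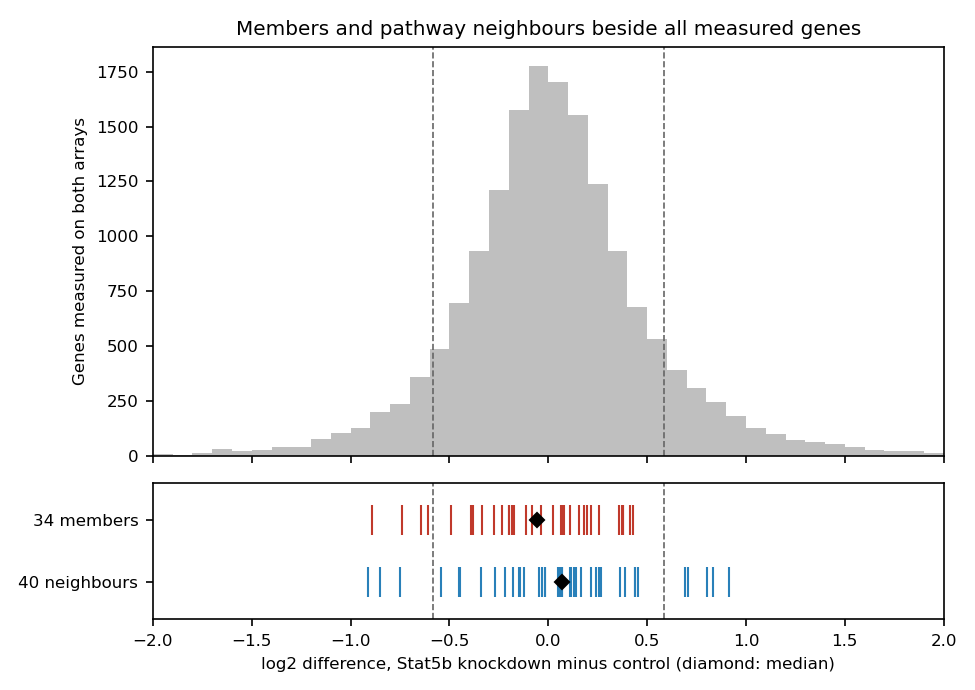
The upper panel is a histogram of the log2 difference, knockdown minus control, over the 16354 genes measured on both arrays, drawn between -2 and 2. In the lower panel each tick is 1 gene of the TCA cycle and pyruvate entry (upper row) or 1 neighbouring gene of the pathway (lower row), diamonds are medians and dashed lines mark 1.5-fold. The members lie between -0.89 and 0.43, with 4 ticks left of the lower dashed line and 0 right of the upper one.

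The members had 73 probes, of which 70 cleared background on both arrays. The other 3, 1 of Ogdh and 2 of Suclg2, cleared it on neither. Several probes were measured for 23 members. In 17 of them all probes had the same sign and in 6 (Pdha1, Pdhx, Pdk1, Dlst, Suclg1 and Sucla2) they did not. The other 11 members rested on 1 probe. Each member probe was searched for stretches of 20 bases that it shares with probes of other genes. Such stretches were found for 1 probe, the brighter of the 2 of Pdp2, which shared them with probes of 45 other genes. The Pdp2 signal of that probe is therefore uncertain. The search covered exact matches between probes, not transcripts or the genome, so it cannot show that the other probes are specific.

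**Figure D2:**
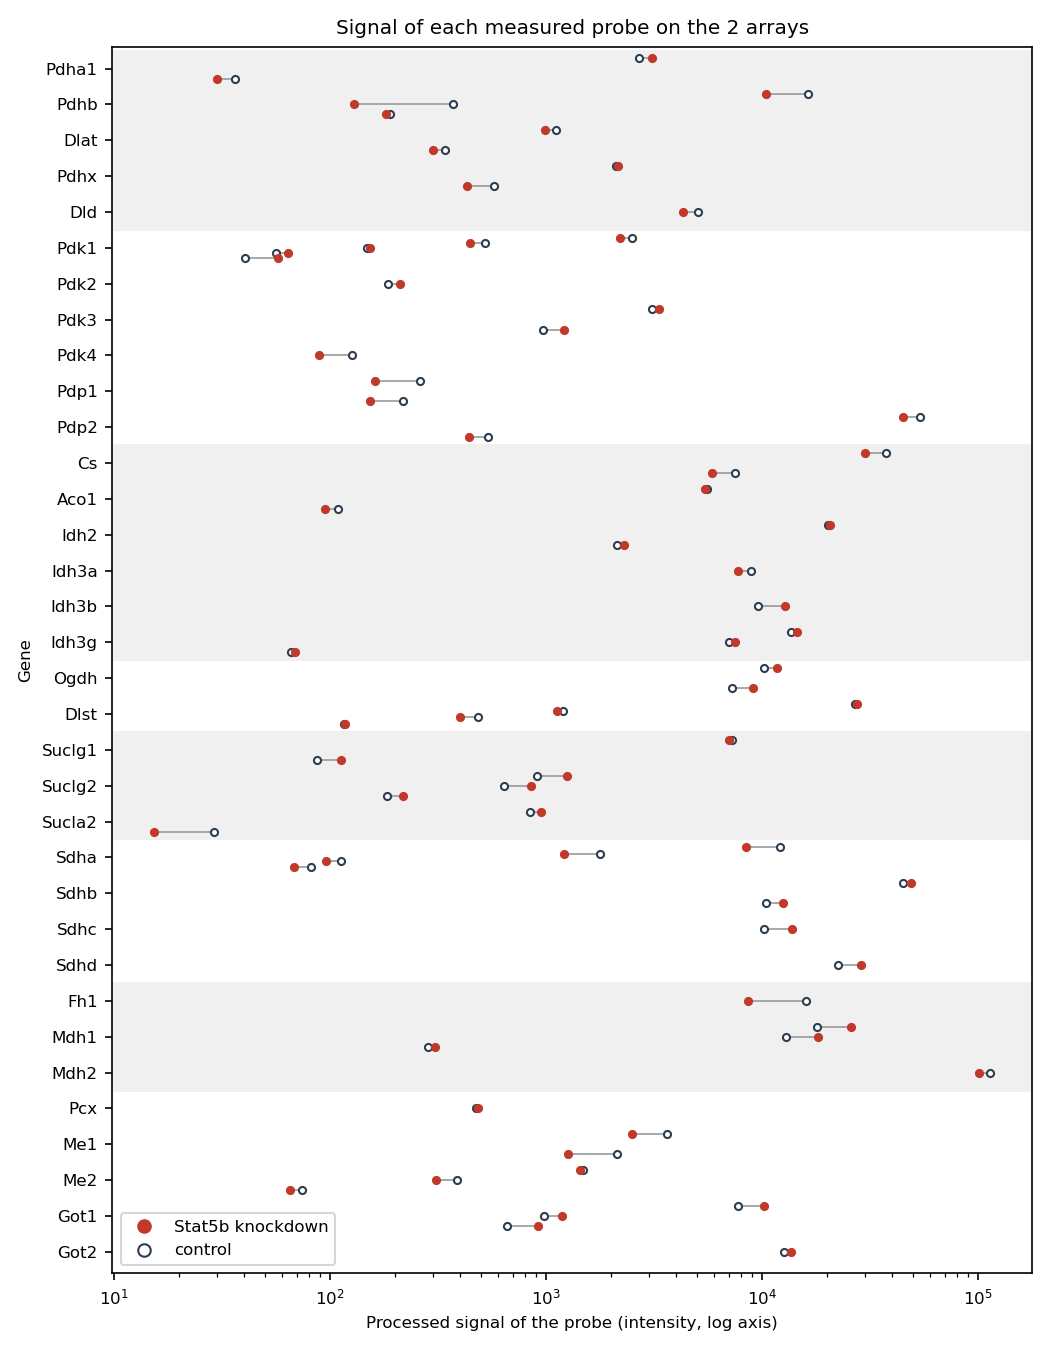
Processed signal (intensity, log axis) of each of the 70 measured probes, by gene, on the knockdown array (filled) and the control array (open), with a line joining the 2 values of a probe. Grey and white bands separate the functional groups. The longest joining lines are those of a dim Pdhb probe (129 and 369), a dim Sucla2 probe (15.3 and 29.1) and the Fh1 probe (8599 and 15961).

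The pyruvate dehydrogenase complex turns pyruvate into acetyl-CoA. Its 5 measured genes all had means below 0 as reported, with a median of -0.20, where 51.2% of all measured genes lay above 0. With the brightest probe of each gene, or with RefSeq probes alone, Pdha1 was at 0.20 and Pdhx at 0.02. Pdhb, the beta subunit of the E1 component, was the lowest at -0.74 ± 0.12, or 1.67-fold lower. Its RefSeq probe had a signal of 10409 on the knockdown array and 16298 on the control array (-0.65). A probe for the transcript AK011810 had 129 on the knockdown array and 369 on the control array (-1.51), and a probe for an Ensembl transcript had 181 and 189 (-0.06). All 3 Pdhb probes were thus lower on the knockdown array, by unlike amounts. The starts of the lowest and the highest of these probes are shown because they set the width of the Pdhb estimate; they are the first 30 of 60 bases as deposited, and Pdhb lies on chromosome 14.
Pdhb, AK011810 probe: taacactacactttgttctcttctgaaata
Pdhb, Ensembl transcript probe: gtgcagctatggtatgtaatatttatggag

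The alpha subunit of E1, Pdha1, differed by -0.03 ± 0.17. Its RefSeq probe had 3099 on the knockdown array and 2694 on the control array (0.20), while a dim probe for an Ensembl transcript had 30.0 and 36.2 (-0.27). The E2 component, dihydrolipoamide acetyltransferase (Dlat), had 987 on the knockdown array and 1113 on the control array at its brighter probe and 299 and 339 at the other, which put it at -0.18 ± 0.14 with probes 0.01 apart. The E3-binding protein, Pdhx, had 2142 on the knockdown array and 2110 on the control array at its RefSeq probe (0.02), and 428 and 570 at a probe for an Ensembl transcript (-0.42). Dihydrolipoamide dehydrogenase (Dld), the E3 component that the 2-oxoglutarate dehydrogenase complex shares, had 4302 on the knockdown array and 5058 on the control array (-0.23 ± 0.20). With the exception of Pdhb, the subunits of this complex stayed within the SD between probes of 1 gene. The probes of opposite sign of Pdha1 (chromosome X) and the RefSeq probe of Pdhx (chromosome 2) start as follows.
Pdha1, Ensembl transcript probe: gggggctgggcatgaaataaaattgaaaac
Pdha1, RefSeq probe: gctgtgacataggaaagataggggagagct
Pdhx, RefSeq probe: cagcgagctttcatgctcagttggaatcta

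Among the regulators of the complex, both phosphatases had means below 0 as reported and 3 of the 4 kinases above it, against 51.2% of all measured genes. The kinase Pdk1 was among these 3, but it was at -0.05 with RefSeq probes alone and at -0.19 with its brightest probe. The phosphatase Pdp1 had 161 on the knockdown array and 261 on the control array at 1 probe and 152 and 218 at the other. At -0.61 ± 0.15 it was 1.53-fold lower, close to the 1.5-fold line. Pdp2, the other phosphatase, had 440 on the knockdown array and 536 on the control array at the probe without shared stretches (-0.28). It had 45026 and 53916 at the probe that shares stretches with probes of other genes (-0.26). Of the kinases, Pdk4, which is induced by fasting in several mouse tissues, had 89.2 on the knockdown array and 126 on the control array (-0.49 ± 0.21). Its only probe sits in 1 of the bottom 64 rows of 384, where 7.57% of measured probes differed by 2-fold or more, against 5.43% in the other rows. Pdk3 had 3312 on the knockdown array and 3091 on the control array at 1 probe and 1213 and 962 at the other (0.22 ± 0.14). Pdk2 had 210 and 186 (0.18 ± 0.21).

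Pdk1, the kinase that hypoxia-inducible factor raises, had 5 measured probes that did not share a sign and a mean of 0.06 ± 0.10. The brightest had 2192 on the knockdown array and 2499 on the control array (-0.19), the next had 444 and 519 (-0.23), and the dimmest, for an Ensembl transcript, had 57.4 and 40.4 (0.51). The difference of Pdk1 therefore turned with the choice of probe. The starts of its lowest and highest probes are shown for that reason (chromosome 2).
Pdk1, RefSeq probe: agccaaatcatgtgacatggcacaaaatag
Pdk1, Ensembl transcript probe: atacaggatgtaaggtgagtgtcttcccag

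**Figure D3:**
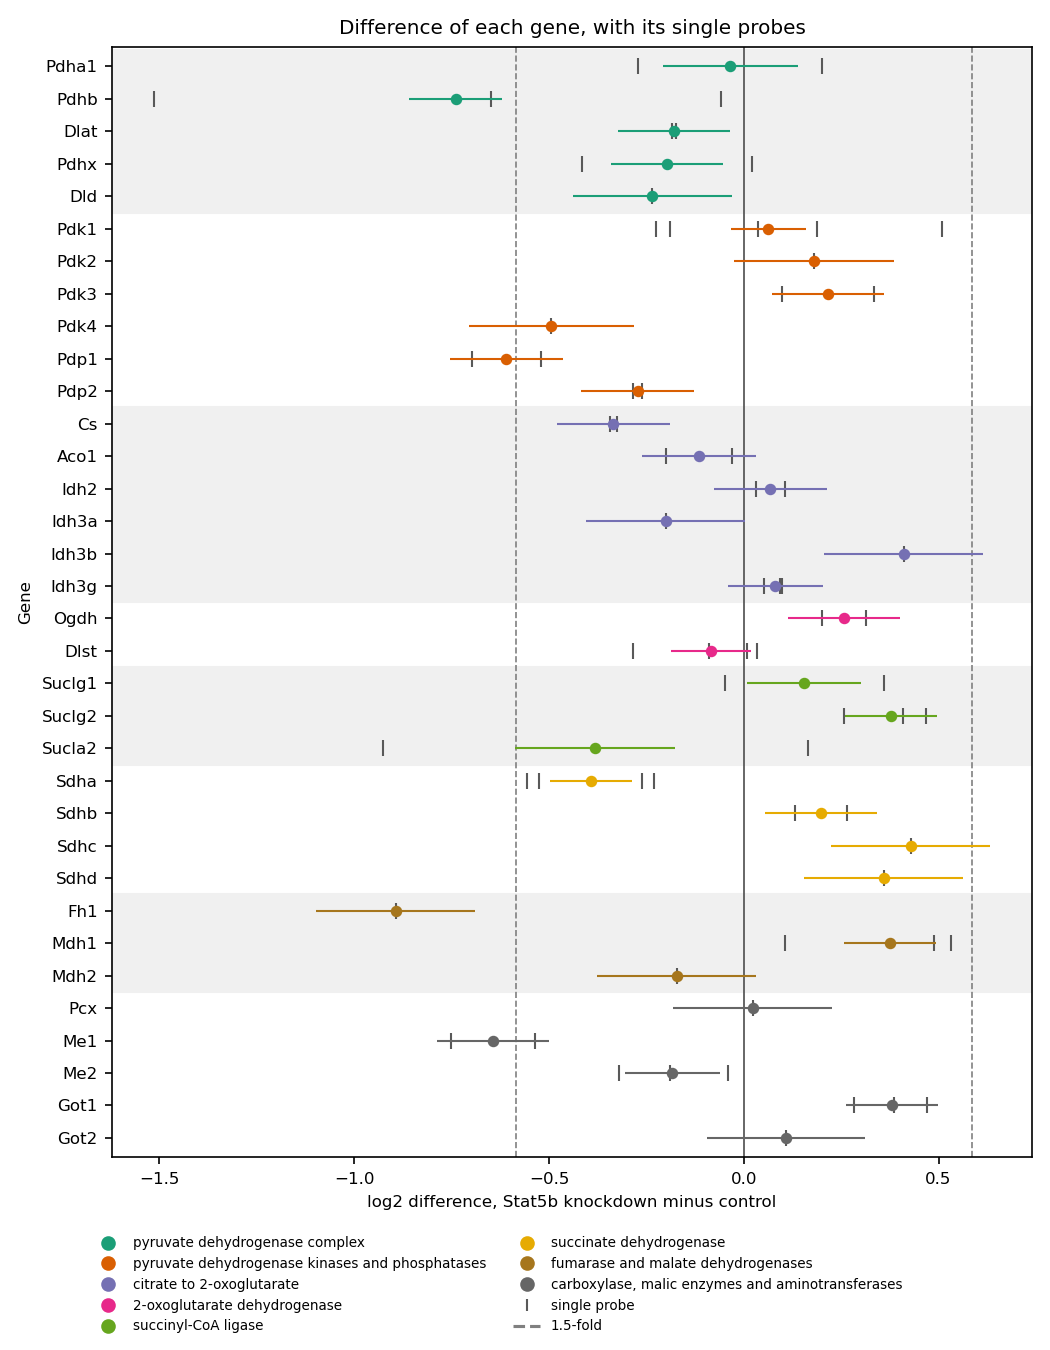
Log2 difference, knockdown minus control, of each gene (points, coloured by functional group, with the scanner software's error as bars) and of its single probes (ticks). Dashed lines mark 1.5-fold. All 5 points of the pyruvate dehydrogenase complex lie left of 0, though the ticks of Pdha1 and Pdhx lie on both sides of it. In succinate dehydrogenase the Sdha ticks lie left of 0 and those of Sdhb, Sdhc and Sdhd right of it.

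The enzymes that lead from citrate to 2-oxoglutarate were split. Of these 6, 3 lay above 0 (50%, against 51.2% of all measured genes), and the median was -0.02. Citrate synthase (Cs), which joins acetyl-CoA to oxaloacetate, had 29790 on the knockdown array and 37297 on the control array at its brighter probe, and 5868 and 7444 at the other. Both Cs probes were lower by nearly the same amount, -0.33 and -0.34, and the mean was -0.33 ± 0.14. Aco1, the cytosolic aconitase that also acts as an iron-regulated RNA-binding protein, differed by -0.11 ± 0.15, and the NADP-dependent mitochondrial isocitrate dehydrogenase Idh2 by 0.07 ± 0.14.

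The NAD-dependent isocitrate dehydrogenase of the cycle consists of catalytic alpha subunits and regulatory beta and gamma subunits. The catalytic subunit, Idh3a, had 7729 on the knockdown array and 8878 on the control array (-0.20 ± 0.20). The beta subunit, Idh3b, had 12714 on the knockdown array and 9556 on the control array (0.41 ± 0.20, 1.33-fold). The gamma subunit, Idh3g, had 14450 and 13533 at its brightest probe, and its 3 probes lay between 0.05 and 0.10. The highest and the lowest of these 3 subunits were 0.61 apart, a gap that rests on 1 probe each for Idh3a and Idh3b.

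The 2-oxoglutarate dehydrogenase complex turns 2-oxoglutarate into succinyl-CoA. Its E1 component, Ogdh, had 11753 on the knockdown array and 10225 on the control array at 1 probe and 9038 and 7266 at another (0.26 ± 0.14). Its E2 component, Dlst, had 27394 on the knockdown array and 26755 on the control array at the RefSeq probe (0.03), and 3 probes for Ensembl transcripts ranged from -0.28 to 0.01, which gave a mean of -0.08 ± 0.10. Dlst lies on chromosome 12, and its lowest and highest probes start as follows.
Dlst, Ensembl transcript probe: tcaagtattctggttaggctagtcaccaac
Dlst, RefSeq probe: gcagcatgtgctactacatctacaccattc

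Succinyl-CoA ligase pairs an alpha subunit with 1 of 2 beta subunits, which set whether GTP or ATP is made. The beta subunit of the GTP-forming enzyme, Suclg2, was higher, at 0.38 ± 0.12. Its measured probes had 1252, 846 and 218 on the knockdown array and 905, 637 and 183 on the control array, so all 3 were higher on the knockdown array. With its 2 probes that were not well above background counted in, its mean was -0.11. Suclg1, the alpha subunit, had 7017 on the knockdown array and 7253 on the control array at its RefSeq probe (-0.05) and 112 and 87.4 at a dim probe for an Ensembl transcript (0.36).

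The beta subunit of the ATP-forming enzyme, Sucla2, had a mean of -0.38 ± 0.21, and its 2 probes had opposite signs. Its RefSeq probe had 947 on the knockdown array and 845 on the control array (0.16), and the dim probe, for an Ensembl transcript, had 15.3 and 29.1 (-0.93). Sucla2 was thus above or below 0 depending on the probe. The probes of Suclg1 (chromosome 6) and Sucla2 (chromosome 14) start as follows.
Suclg1, RefSeq probe: catcatactgattggtgaaattggtggtca
Suclg1, Ensembl transcript probe: ctgtggccatgtatgtatatgcacttggtt
Sucla2, Ensembl transcript probe: catggcacttcaccctgtgtagtcatatat
Sucla2, RefSeq probe: gaacatcattttaattattacaggacaatg

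The subunits of succinate dehydrogenase, which is also complex II of the respiratory chain, lay on both sides of 0. Sdha, the flavoprotein that oxidises succinate, was lower. Its RefSeq probes had 8396 and 1205 on the knockdown array and 12071 and 1770 on the control array (-0.52 and -0.56). Probes for an Ensembl transcript and for AK005350 had 67.8 and 95.5 on the knockdown array and 81.2 and 112 on the control array (-0.26 and -0.23). All 4 Sdha probes were lower on the knockdown array, with a mean of -0.39 ± 0.10.

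The other subunits were higher. Sdhb, the iron-sulfur subunit, had 48865 and 12538 on the knockdown array and 44604 and 10427 on the control array, a mean difference of 0.20 ± 0.14. Sdhc, a membrane anchor, had 13665 on the knockdown array and 10146 on the control array. At 0.43 ± 0.20, or 1.35-fold, it was the highest of the 34 members as reported, but Mdh1 was above it with brighter probes alone (0.51), with the brightest probe (0.53) and with either choice of RefSeq probes (0.51), and Suclg2 was above it with brighter probes alone (0.44) and with the brightest probe (0.47). Sdhd, the other membrane anchor, had 28751 on the knockdown array and 22397 on the control array (0.36 ± 0.20), at a probe in the last 64 rows. Sdha kept its sign under each of the 11 alternatives, as did Sdhb and Sdhc and, in the 10 that measured it, Sdhd. Sdhc and Sdhd had 1 probe each, so alternatives that only choose probes could not change their values. Sdhc lies on chromosome 1, and the start of its probe is shown because it had the highest difference as reported.
Sdhc, RefSeq probe: aggacacttctgtccattggtcagcttagg

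Fumarase (Fh1), which turns fumarate into malate, showed the largest difference of the 34 members. Its single probe had a signal of 8599 on the knockdown array and 15961 on the control array, which is 53.8% of the control level (-0.89 ± 0.20 on the log2 scale). The probe lay outside the last 64 rows and shared no stretch of 20 bases with probes of other genes. Over the 11 alternatives the Fh1 difference ranged from -0.90 to -0.86.

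Malate dehydrogenase exists as a cytosolic and a mitochondrial enzyme. Mdh1, the cytosolic one, had 25822, 18087 and 307 on the knockdown array and 17857, 12880 and 285 on the control array. All 3 Mdh1 probes were higher on the knockdown array (0.53, 0.49 and 0.10), with a mean of 0.37 ± 0.12. Mdh2, the mitochondrial enzyme that closes the cycle, had 100827 on the knockdown array and 113501 on the control array (-0.17 ± 0.20).

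Aspartate aminotransferases work with the malate dehydrogenases in the malate-aspartate shuttle, which carries reducing equivalents into mitochondria. The cytosolic form, Got1, was higher at all 3 probes, with 10135, 1185 and 912 on the knockdown array and 7750, 973 and 658 on the control array. The last 2 of these probes share 50 bases, so they are not separate readings. Got1 had a mean of 0.38 ± 0.12, or 1.30-fold. The mitochondrial form, Got2, had 13533 on the knockdown array and 12544 on the control array (0.11 ± 0.20).

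Among the enzymes that fill the cycle or draw on it, cytosolic malic enzyme (Me1), which makes pyruvate and NADPH from malate, was lower. Its probes had 2506 and 1265 on the knockdown array and 3631 and 2127 on the control array (-0.54 and -0.75). With a mean of -0.64 ± 0.14 it was 1.56-fold lower. The mitochondrial malic enzyme Me2 had 1439, 310 and 65.3 on the knockdown array and 1479, 387 and 74.3 on the control array (-0.18 ± 0.12). Pyruvate carboxylase (Pcx), which makes oxaloacetate and in brain is found mainly in astrocytes, had 484 on the knockdown array and 476 on the control array (0.02 ± 0.20). The 4 cytosolic enzymes, Aco1, Mdh1, Me1 and Got1, thus ran from -0.64 to 0.38. Above 0 were 2 of the 4 (50%, against 51.2% of all measured genes).

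A list of 42 neighbouring genes of the pathway, which are not among the 34, held carriers, cofactor enzymes, assembly factors and enzymes of lactate, acetate and glutamine use. Of these, 40 were measured, and their median was 0.07, against 0.01 over all measured genes. Above 0 were 23 of the 40 (57.5%, against 51.2% of all measured genes). At least 1.5-fold higher were 5 (12.5%, against 11.0% of all measured genes) and at least 1.5-fold lower were 3 (7.5%, against 8.42%). Idh1, the cytosolic isocitrate dehydrogenase, had 308 on the knockdown array and 378 on the control array at its brighter probe (mean -0.27 ± 0.15). The mitochondrial pyruvate carrier subunits Mpc1 and Mpc2 differed by -0.01 ± 0.14 and 0.06 ± 0.15. Of the lactate dehydrogenase subunits, Ldha was at 0.13 ± 0.14 and Ldhb, with 7983 on the knockdown array and 6219 on the control array at its brighter probe, at 0.36 ± 0.14.

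The highest neighbour was Sdhaf4, an assembly factor that binds the flavoprotein subunit of succinate dehydrogenase, with 1727 on the knockdown array and 917 on the control array (0.91 ± 0.20). The mitochondrial citrate carrier Slc25a1 had 5311 and 1455 on the knockdown array and 3261 and 908 on the control array (0.69 ± 0.14). The mitochondrial phosphoenolpyruvate carboxykinase Pck2 was at 0.71 ± 0.15, the acetyl-CoA synthetase Acss2 at 0.80 ± 0.12 with its 4 measured probes between 0.11 and 1.17, and the malic enzyme Me3, at a dim probe, at 0.83 ± 0.26. On the low side were the glutaminase Gls2, with 177 on the knockdown array and 333 on the control array (-0.91 ± 0.21), and the alanine aminotransferase Gpt2, with 2361 and 398 on the knockdown array and 4059 and 752 on the control array (-0.85 ± 0.14). The mitochondrial acetyl-CoA synthetase Acss1 had 595 on the knockdown array and 998 on the control array (-0.75 ± 0.20).

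Promoter sequences of RefSeq, build GRCm38.p6, were matched by symbol to 30 of the 34 members, with 39 windows of 300 bases (250 before to 50 after the start of transcription) among 32851 windows of all genes. Pdp1, Idh3a, Sdhc and Me2 had no entry. Motifs were searched on both strands. The STAT motif TTCNNNGAA was in 0 of the 39 member windows and in 8.30% of all windows. The GC box GGGCGG was in 23 member windows (59.0%), against 35.7% of all windows. The median GC content was 60.7% in member windows and 52.7% in all windows. Some genes had several windows, and some of those of Ogdh overlap, so windows are not separate counts. By gene, the GC box was in 20 of the 30 members, and the share by gene over all genes was not computed. The palindromic core motif of nuclear respiratory factor 1 was in 0 member windows and in 0.971% of all, and the motif TCAAGGTCA of the estrogen-related receptors was in 1 member window, that of Sdhd, and in 0.423% of all. None of these motifs contains another. A match is a run of letters, not a site that was shown to be bound.

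The promoters of the members with an entry that were lowest and highest as reported, Fh1 and Idh3b, are shown as the 250 bases before the start, on the minus strand, 5′ to 3′, with GC boxes in capitals. The Fh1 stretch, at chr1:175625636-175625885, holds 1 GC box, and the Idh3b stretch, at chr2:130284452-130284701, holds 0.
Fh1: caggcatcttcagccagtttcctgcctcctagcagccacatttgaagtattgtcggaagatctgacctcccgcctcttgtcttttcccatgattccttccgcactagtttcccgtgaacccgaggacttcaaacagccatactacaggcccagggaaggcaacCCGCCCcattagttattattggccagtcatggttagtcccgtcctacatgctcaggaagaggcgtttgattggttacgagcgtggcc
Idh3b: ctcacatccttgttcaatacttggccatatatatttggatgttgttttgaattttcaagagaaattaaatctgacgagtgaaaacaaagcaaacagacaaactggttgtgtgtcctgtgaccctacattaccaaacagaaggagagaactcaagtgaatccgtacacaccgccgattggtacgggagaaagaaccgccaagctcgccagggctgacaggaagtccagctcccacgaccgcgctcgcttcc

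Of the 34 members, 27 kept 1 sign over the values reported and the 11 alternatives that measured them, 13 above 0 and 14 below. The other 7 (Pdha1, Pdhx, Pdk1, Dlst, Suclg1, Suclg2 and Sucla2) had either sign. For the 11 members with 1 measured probe, alternatives that only choose probes could repeat or drop the value but not change it. Fh1 and Pdhb stayed at least 1.5-fold lower throughout. The bright RefSeq probe of Pdhb lay in the last 64 rows. Without those rows, the Pdhb value of -0.79 rested on dim probes alone, at -1.51 and -0.06. Me1 was at -0.54 with its brightest probe alone, and Pdp1 was at -0.47 with normexp background correction, both short of 1.5-fold.

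**Figure D4:**
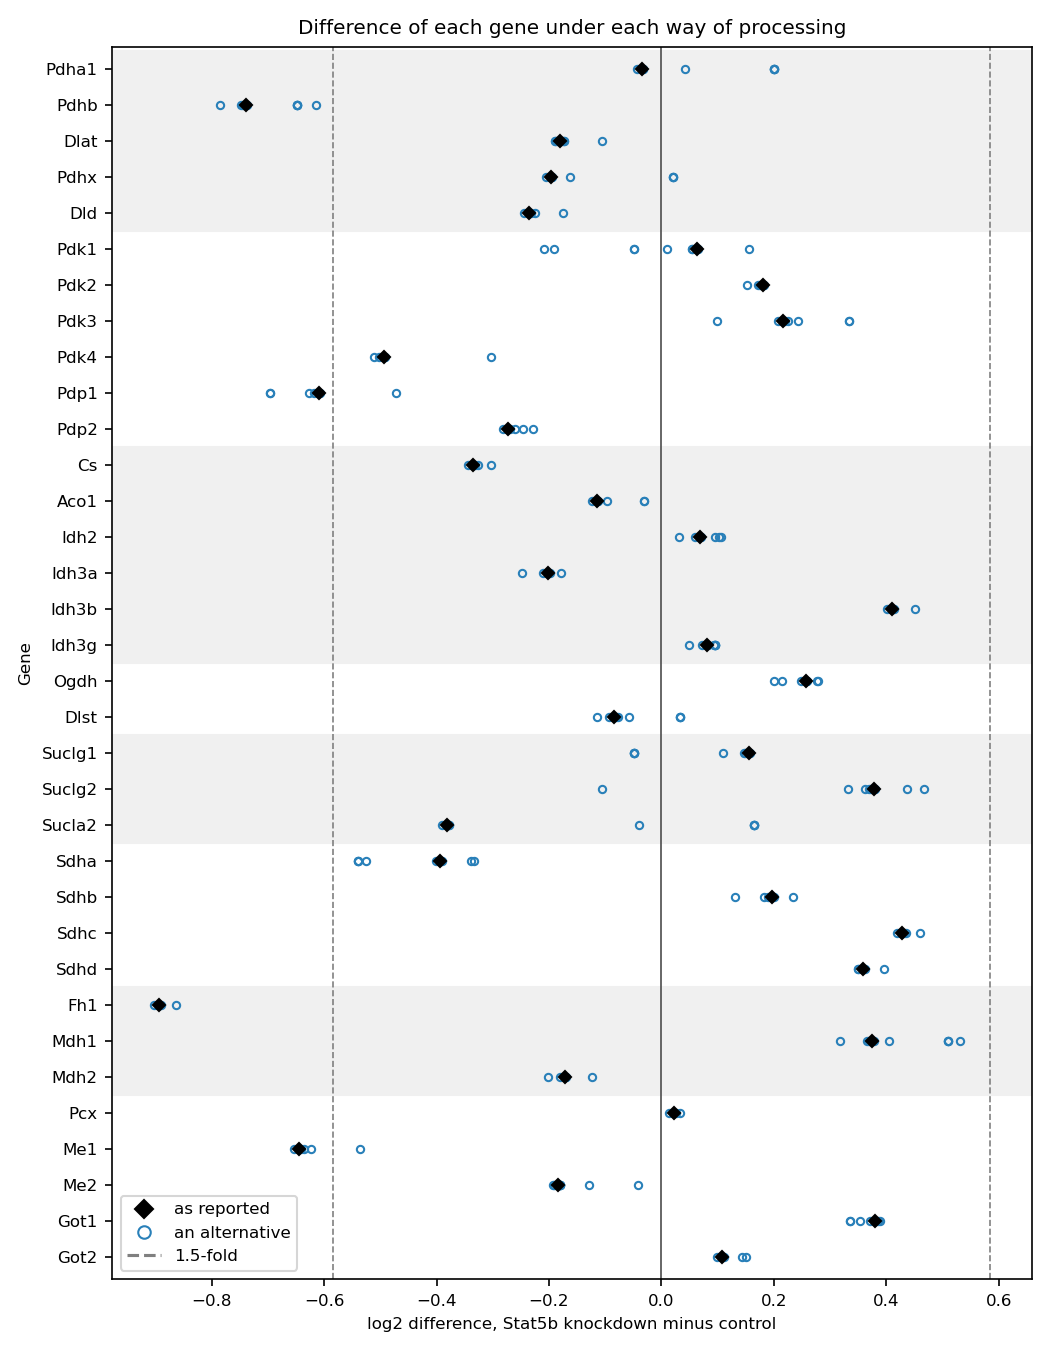
Log2 difference, knockdown minus control, of each gene as reported (diamonds) and under each of 11 alternative ways of processing (open circles); dashed lines mark 1.5-fold. Fh1 stays between -0.90 and -0.86, and Sucla2 runs from -0.39 to 0.16.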

How the data were processed

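RNA of 1 knockdown and 1 control culture was labelled with Cy3, per the labels' protocols, and the scans were quantified, per the file headers, by Agilent Feature Extraction 12.1.0.3 (protocol GE1_1200_Jun14). The deposited intensity is the processed signal, background-corrected by that software and not scaled between arrays. The authors' deposited log2 table equalled log2 of that signal minus 1 constant per array (8.94 for each), to within 0.001 for 100% of 56294 single-spot probes, with column medians of -3.83 on the knockdown array and -3.83 on the control array; it was used as an alternative.

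Spots with outlier flags (94 on the knockdown and 112 on the control array) were left out and 0 probes were saturated. A level is log2 signal minus the array's 75th percentile, which stood at a signal of 493.7 on the knockdown and 493.3 on the control array. A gene's difference averages those of its probes that cleared background on both arrays (32047 of 56594 probes). Probes were named by accession through RefSeq (34560), else by symbol. Between replicate spots of a probe the SD of the difference was 0.0558. The number of arrays limits the precision; both lay on 1 slide. The 34 members, their roles, the neighbouring genes and the cell type markers were chosen with earlier results of these data known. Every member is named; neighbours are named by a fixed short list or a difference of at least 1.5-fold. Probe starts are shown for the member highest as reported, for members with probes of both signs and, chosen after its values were seen, for Pdhb; a few items that these rules would name are not reported here. The promoter motifs were also chosen after the values were seen. The gene summary was tested on simulated data. The planted changes were larger than any member's difference and the noise was smaller than the SD between probes of 1 gene. Recovery of differences of the members' size was therefore not tested. Tools were Python 3.11.15, pandas 2.3.3, R 4.3.3 and limma 3.58.1 (normexp, offset 50, on the median signal because the files hold no mean signal column).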

Additional observations from a re-analysis of the deposited data

How the results depend on the processing

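Results were recomputed under 10 alternatives set at the start (normexp background correction, median scaling, quantile normalization, no filter on dim probes, brighter probes alone, the brightest probe per gene, RefSeq probes alone, the files' symbols alone, leaving out the last 64 rows, and the authors' table) and 1 chosen after seeing the data, RefSeq probes where a gene has one. Under each of the 11, 0 members were at least 2-fold higher or lower and 0 were at least 1.5-fold higher. The count at least 1.5-fold lower lay between 3 and 4, and the members' median between -0.09 and 0.02. Shares of all genes also moved with the setting. At least 2-fold higher were 1.17% (normexp) to 4.77% (no filter on dim probes), and 2-fold lower 1.02% to 3.72% in the same settings. At least 1.5-fold higher were 5.78% (normexp) to 11.9% (brightest probe per gene). At least 1.5-fold lower were 4.80% (normexp) to 10.0% (no filter on dim probes). Values of 2 members moved by more than the 0.310 SD between probes of 1 gene. Sucla2 was at 0.16 with brighter probes, with its brightest probe and with either choice of RefSeq probes and at -0.04 with normexp, against -0.38 as reported. Suclg2 was at -0.11 without the filter on dim probes, against 0.38. Without the bottom 64 rows Dld, Pdk4 and Sdhd had no value, and with brighter probes alone 3 members had none. No paired analysis was possible because each group had 1 array, and for the same reason no replicate could be left out.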
